A study of Mus musculus with 12 samples.

Results

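Cell cycle inhibitors, G1 cyclins and their regulators were followed in mouse regulatory T cells (Treg) through 10 genes chosen by name: Cdkn1a, Cdkn1b, Cdkn2a, Cdkn2b, Cdkn2c, Cdkn2d, Ccnd2, Ccnd3, Cdk6 and Trp53. All 10 were found in both expression tables, among 16232 genes in the in vivo table and 24421 in the in vitro table. Polyadenylated RNA of Treg from spleen and lymph nodes was sequenced in 12 libraries, which form 6 groups of 2. The groups are wild type (WT) and Kdm2b conditional knockout (cKO) Treg taken in vivo, the same genotypes unstimulated in vitro, and the same genotypes stimulated in vitro. The Cre driver, the strain, the age and number of the mice, the stimulus and its duration are not given in the sources used here. Nothing states that libraries of a group came from separate mice, so p-values measure the spread between these libraries, which may be technical. The design asks how loss of Kdm2b, which belongs to the Polycomb repressive complex PRC1.1, changes Treg transcription in the animal and on activation. Levels are FPKM (fragments per kilobase of gene and of sequenced fragments, scaled to a common total).

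Entry into the cell cycle is governed in G1 by D-type cyclins, which bind and activate the kinases Cdk4 and Cdk6. The INK4 proteins, encoded by Cdkn2a to Cdkn2d, bind these kinases and keep them from the cyclins, while the CIP/KIP proteins p21 (Cdkn1a) and p27 (Cdkn1b) act on cyclin-kinase complexes more broadly. Resting T cells hold p27 at a high level and lower it when they are activated, Trp53 encodes p53, which induces Cdkn1a after DNA damage, and the Cdkn2a and Cdkn2b locus is a classic target of Polycomb repression.

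Promoter sequences from RefSeq (GRCm38.p6; 250 bases before to 50 after the start) were listed for 9 of the 10 genes, at 13 start sites. They are shown for Cdkn2a, Cdkn2b and Cdkn1b because the Kdm2b protein binds unmethylated CpG through its CXXC domain. Cdkn2a is also shown because its single FPKM value merges transcripts of separate starts: p19Arf begins at the upstream start and p16Ink4a at the downstream one, with different reading frames. Each line runs 5′ to 3′ on the gene's strand from 150 to 36 bases before the start, with every CG in capitals.
Cdkn2a p16Ink4a start, chr4:89282228-89282342, minus strand: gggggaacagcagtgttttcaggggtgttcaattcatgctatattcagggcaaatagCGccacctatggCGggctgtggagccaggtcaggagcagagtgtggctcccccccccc
Cdkn2a p19Arf start, chr4:89294655-89294769, minus strand: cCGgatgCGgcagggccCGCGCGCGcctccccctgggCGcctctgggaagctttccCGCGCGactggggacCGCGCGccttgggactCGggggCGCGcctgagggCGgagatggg
Cdkn2b start, chr4:89311068-89311182, minus strand: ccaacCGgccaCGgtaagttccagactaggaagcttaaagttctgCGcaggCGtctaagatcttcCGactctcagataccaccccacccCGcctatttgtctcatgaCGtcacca
Cdkn1b start, chr6:134920251-134920365, plus strand: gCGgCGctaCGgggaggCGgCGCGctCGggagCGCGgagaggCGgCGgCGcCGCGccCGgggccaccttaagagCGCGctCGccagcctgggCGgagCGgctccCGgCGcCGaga
The printed stretches hold 2, 17, 7 and 23 CpG, in that order. Over the whole promoter of 300 bases the p19Arf start had 45 CpG, at the 98.1 percentile of 32851 promoters, whose median was 7. The p16Ink4a start had 12, at the 60.4 percentile. Cdkn1b had 30 and Cdkn2b 18, and the other start sites ran from 2 (the upstream start of Cdkn1a) to 33 (the upstream start of Cdkn2c). An E2F motif (TTTCGCGC, TTTGGCGC or TTTCCCGC, either strand) was found at 1 of the 13 start sites, the p19Arf start, against 1.84% of all promoters. A FOXO motif (GTAAACA, either strand) was found at 1, the Ccnd3 start at 47505051 on chromosome 17, against 3.65% of all promoters. These matches are letters in a window, not measured binding.

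The targeted gene, Kdm2b, was not lower in the libraries labelled cKO in vivo or unstimulated. In stimulated cells both cKO libraries were below both WT libraries, with a log2 difference of -0.09 (SE 0.13, adjusted p = 0.778 by limma). In vivo WT had 112.62 and 110.38 FPKM and cKO 146.46 and 125.4. Unstimulated WT had 84.9 and 94.9 and unstimulated cKO 89.8 and 97.4, while stimulated WT had 74.5 and 71.7 and stimulated cKO 66.3 and 70.5. The deleted exons are not given in the sources used here, so the level of the whole gene checks no label, and cKO below means the libraries labelled so. Markers of other cells moved with genotype. The summed level of 8 B cell markers was 52.9 and 69.1 FPKM in WT and 17.5 and 24.6 in cKO in vivo. In vitro the direction was the opposite, with 29.7 to 48.7 FPKM over the 4 WT libraries and 151 to 196 over the 4 cKO libraries, and Cd22 was the only B cell marker listed at 0, in 1 stimulated WT library. The 7 erythroid markers took 11.7% and 10.4% of all FPKM in cKO replicate 1, unstimulated and stimulated, 1.26% and 1.86% in cKO replicate 2, and at most 0.457% in WT in vitro. The 7 myeloid markers summed to 6.61 to 10.9 FPKM in WT and 35.96 to 152 in cKO in vitro. All 5 Treg and 6 T cell markers were above 0 in every library, but the Treg markers differed by genotype in level. Their sum was lower in cKO in each setting, at 1470 and 1502 against 1568 and 1664 FPKM in vivo, 785 and 867 against 1043 and 1138 unstimulated, and 1392 in both libraries against 1843 and 2011 stimulated. Single markers did not all follow the sum, since 4 of 5 were higher in cKO in vivo and 2 of 5 in each in vitro setting. In vivo Ctla4 was lower in cKO (mean 911 against 1143 FPKM), while Foxp3 was higher (113.86 and 117.25 against 106.61 and 105.83). Foxp3, which specifies Treg, averaged 77.0 FPKM in unstimulated cKO and 191.7 in WT (log2 difference -1.31, adjusted p = 0.0636), and 253 and 613 when stimulated (-1.26, adjusted p = 0.0769). WT replicate 2 in vitro had 12379 and 13273 genes at 0, where the remaining in vitro libraries had 9102 to 9857. In bulk RNA, fewer cells of a type and less RNA per cell cannot be told apart.

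Cdkn1b was the most abundant member before stimulation, and Cdkn2a and Cdkn2b were the scarcest in each group. Cdkn1b headed the order of group means in both in vivo and both unstimulated groups, and its range there did not overlap that of the next member. In the stimulated groups Ccnd2 came first. Its range overlapped that of Cdkn1b in WT (74.6 and 111.78 against 73.3 and 87.9 FPKM) but not in cKO. The lowest place was held by Cdkn2b in 5 groups and by Cdkn2a in unstimulated WT. Neighbours with overlapping ranges included Trp53 and Ccnd2 in both in vivo groups and Ccnd3, Cdkn2d and Ccnd2 in unstimulated WT. The in vivo and in vitro tables were normalized separately, so levels set across them are not tested.

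**Figure D1:**
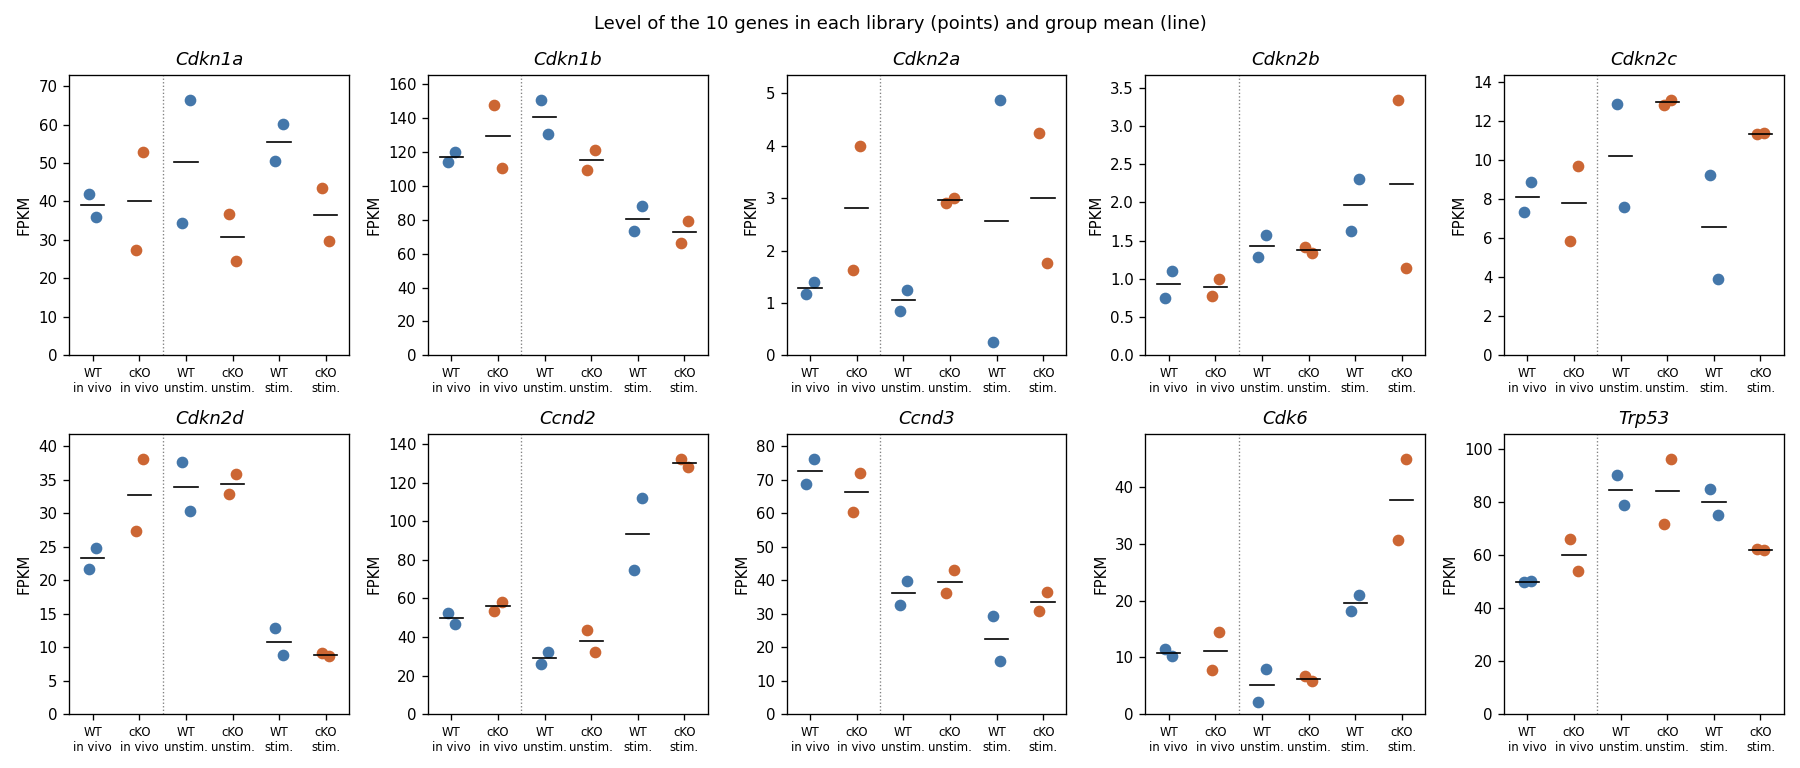
FPKM of each of the 10 genes in each library, 1 panel per gene, with WT in blue, cKO in orange, a line at each group mean and a dotted line between the separately normalized in vivo and in vitro tables. Ccnd2 and Cdk6 sit higher in the 4 stimulated than in the 4 unstimulated libraries, and Cdkn2d and Cdkn1b sit lower.

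On stimulation the cyclin Ccnd2 rose and the INK4 inhibitor Cdkn2d fell in both genotypes. The kinase Cdk6 rose in cKO and the CIP/KIP inhibitor Cdkn1b fell in WT, a call lost in 17 of 17 alternatives run. In the other genotype each moved the same way without passing the test. The log2 differences there were 1.95 for Cdk6 in WT and -0.66 for Cdkn1b in cKO. Of the 10 members, 3 passed the test in WT (1 higher, 2 lower) and 3 in cKO (2 higher, 1 lower), at an adjusted p under 0.05 by limma with Benjamini-Hochberg adjustment over all genes. Over all 10710 genes tested, 2.43% were called in WT (1.61% higher, 0.822% lower) and 4.58% in cKO (2.08% higher, 2.49% lower). The median member differed by 0.06 on the log2 scale in WT and by -0.12 in cKO, against -0.04 and -0.14 over all genes. The groups did not overlap for 6 of 10 members in each genotype, against 41.7% of all genes in WT and 64.8% in cKO. In WT 3 of these were higher and 3 lower, against 18.8% and 22.9% of all genes, and in cKO 2 were higher and 4 lower, against 20.7% and 44.1%. At an unadjusted p under 0.05 there were 5 members in each genotype. Another scaling moved the median of all genes in cKO from -0.14 to between -0.03 and -0.02, and under each such scaling Ccnd2 and Cdk6 were higher and Cdkn2d and Cdkn1b lower in stimulated cells of both genotypes.

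Ccnd2, cyclin D2 (GRCm38 chromosome 6, 127125162 to 127152193, minus strand), stood at 26.1 and 32.0 FPKM in unstimulated WT and at 74.6 and 111.78 in stimulated WT. In cKO it stood at 43.7 and 32.5 unstimulated and at 132.2 and 128.3 stimulated. Every stimulated library was above every unstimulated one, and stimulated cKO was above stimulated WT. The change on the log2(FPKM + 1) scale was 1.63 (SE 0.23, adjusted p = 0.0133) in WT and 1.76 (SE 0.23, adjusted p = 0.00931) in cKO. In vivo WT had 52.5 and 46.8 FPKM and cKO 53.6 and 58.3.

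Cdk6, the kinase partner of the D cyclins (chromosome 5, 3341485 to 3531008, plus strand), was at 2.199 and 7.92 FPKM in unstimulated WT, then 18.2 and 21.1 after stimulation. In cKO it was at 6.72 and 5.78 FPKM, then 30.6 and 44.9. All 4 stimulated libraries were above all 4 unstimulated ones, and in unstimulated WT replicate 1 was below replicate 2. Its log2 difference was 2.40 (SE 0.43, adjusted p = 0.0264) in cKO and 1.95 (SE 0.43, adjusted p = 0.0634) in WT. The WT value did not pass the test, and leaving out 1 library moved it between 1.21 (adjusted p = 0.0919, without unstimulated WT replicate 1) and 2.69 (adjusted p = 0.0136, without unstimulated WT replicate 2). In vivo the Cdk6 level was 11.4 and 10.3 FPKM for WT and 7.83 and 14.5 for cKO, where the cKO libraries spanned both WT values.

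Ccnd3, cyclin D3 (chromosome 17, 47505051 to 47599691, plus strand), did not follow Ccnd2. Its levels were 32.7 and 39.7 FPKM in unstimulated WT and 29.2 and 15.9 in stimulated WT. In cKO they were 36.2 and 42.9 unstimulated and 30.7 and 36.3 stimulated. The WT groups did not overlap and the cKO groups did. The log2 differences were -0.71 (SE 0.27, adjusted p = 0.211) in WT and -0.23 (adjusted p = 0.682) in cKO, and neither passed the test. The WT value was -1.13 (adjusted p = 0.0266) without stimulated WT replicate 1, -0.29 (adjusted p = 0.679) without stimulated WT replicate 2, and -0.16 (adjusted p = 0.713) without both WT replicate 2 libraries. In vivo Ccnd3 had 68.8 and 76.1 FPKM in WT, with cKO overlapping it at 60.4 and 72.0.

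The ratio of Ccnd2 to Ccnd3 within a library, a ratio of levels per length, separated stimulated from other libraries. It was 0.615 to 0.888 over the 4 in vivo libraries and 0.758 to 1.21 over the 4 unstimulated ones. Stimulated WT had ratios of 2.56 and 7.05 and stimulated cKO 4.31 and 3.53. The ratio of Cdk6 to Cdk4, the other D cyclin kinase, was 0.147 to 0.193 in vivo, 0.0504 to 0.241 unstimulated, and 0.421 to 1.01 stimulated. Cdk4 was used here after its values were seen; it was called in none of the comparisons. Every stimulated library exceeded every unstimulated one in both ratios. The groups of genotype overlapped in vivo and unstimulated for Cdk6 over Cdk4, but not stimulated (WT 0.421 and 0.628, cKO 0.725 and 1.01). For Ccnd2 over Ccnd3 they overlapped unstimulated and stimulated, but not in vivo (WT 0.763 and 0.615, cKO 0.888 and 0.809). The ratios were not tested between genotypes.

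**Figure D2:**
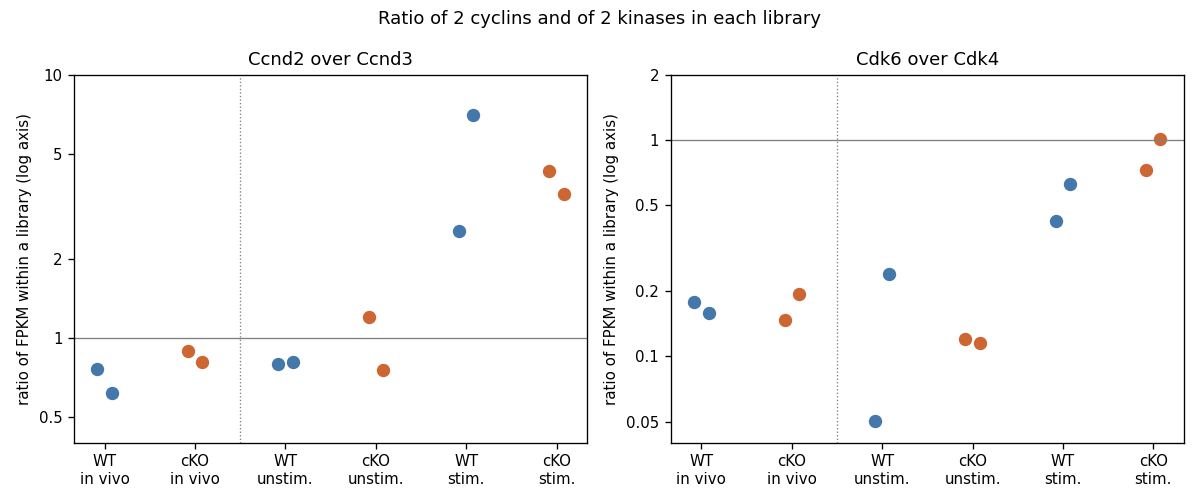
Ratios of FPKM within each library on a log axis, Ccnd2 over Ccnd3 on the left and Cdk6 over Cdk4 on the right, with WT in blue, cKO in orange and a line at a ratio of 1. The stimulated libraries lie at 2.56 to 7.05 and at 0.421 to 1.01, above all others.

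Among the inhibitors, Cdkn2d, encoding p19Ink4d (chromosome 9, 21288410 to 21291407, minus strand), fell in both genotypes. It was at 37.6 and 30.3 FPKM in unstimulated WT and at 12.8 and 8.87 in stimulated WT. In cKO it was at 32.9 and 35.9 FPKM and then at 9.15 and 8.66. The lowest unstimulated library was above the highest stimulated one in either genotype. Cdkn2d fell by 1.57 on the log2 scale in WT (SE 0.21, adjusted p = 0.0104) and by 1.84 in cKO (SE 0.21, adjusted p = 0.00555).

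Cdkn1b, encoding p27 (chromosome 6, 134920401 to 134925513, plus strand), was at 150.28 and 130.32 FPKM in unstimulated WT and at 73.3 and 87.9 in stimulated WT. In cKO it was at 109.3 and 121.14 FPKM and then at 66.3 and 79.0. The 4 stimulated libraries were below the 4 unstimulated ones. Cdkn1b fell by 0.79 on the log2 scale in WT (SE 0.16, adjusted p = 0.0495), a call that was lost in 17 of 17 alternatives run (adjusted p 0.0516 to 0.214). In cKO the difference was -0.66 (SE 0.16, adjusted p = 0.0622). In vivo WT had 114.02 and 119.68 FPKM and cKO 147.78 and 110.56, so the cKO libraries spanned both WT values.

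The other members did not pass the test for stimulation in either genotype. Cdkn1a, encoding p21 (chromosome 17, 29090976 to 29100727, plus strand), was at 34.5 and 66.3 FPKM in unstimulated WT and at 50.6 and 60.2 in stimulated WT. In cKO it was at 36.7 and 24.7 FPKM and then at 43.5 and 29.7. The groups overlapped in both genotypes, with log2 differences of 0.20 and 0.25. Cdkn2c, encoding p18Ink4c (chromosome 4, 109660876 to 109667189, minus strand), was at 12.8 and 7.58 FPKM in unstimulated WT and at 9.24 and 3.91 in stimulated WT. In cKO it was at 12.8 and 13.1 FPKM and then at 11.3 and 11.4. The log2 differences were -0.62 (adjusted p = 0.391) and -0.17 (adjusted p = 0.837), and the cKO groups did not overlap. Trp53 (chromosome 11, 69580359 to 69591873, plus strand) was at 90.5 and 79.0 FPKM in unstimulated WT and at 85.2 and 75.2 in stimulated WT. In cKO it was at 72.0 and 96.4 FPKM and then at 62.3 and 62.0. The cKO groups did not overlap, with a log2 difference of -0.42 (adjusted p = 0.212), while in WT the difference was -0.08.

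**Figure D3:**
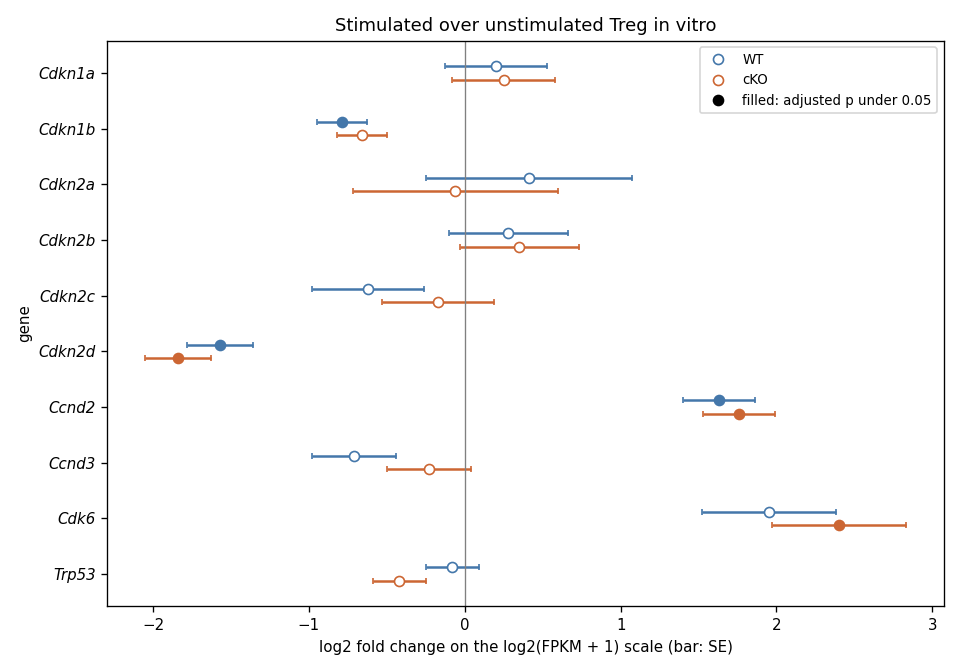
Stimulated over unstimulated log2 difference of each gene on the log2(FPKM + 1) scale, with bars of 1 SE, for WT and cKO; filled points passed an adjusted p under 0.05. Ccnd2 lies at 1.63 and 1.76 and Cdkn2d at -1.57 and -1.84 in WT and cKO.

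The WT and cKO responses were compared by the interaction term. No member was called by limma (adjusted p = 0.999 for each), and 0 had an unadjusted p under 0.05, against 0.0% called and 3.55% of all genes. The differences ran from -0.47 (SE 0.94) for Cdkn2a to 0.48 (SE 0.38) for Ccnd3, with 0.13 (SE 0.32) for Ccnd2 and -0.26 (SE 0.29) for Cdkn2d. Cdk6, called in cKO alone, had an interaction of 0.45 (SE 0.61), so a difference between the genotypes was not shown. The WT and cKO counts rested on single libraries. Leaving out unstimulated WT replicate 1 or stimulated WT replicate 2 left 1 called member in WT, with 174 and 95 genes called over all, against 260. Leaving out unstimulated cKO replicate 2 or either stimulated cKO library left 0 in cKO, where 12, 20 and 20 genes were called over all, against 490. Without both cKO replicate 1 libraries, those rich in erythroid RNA, 0 members were called in either genotype, with 32 genes called over all in WT and 1 in cKO. The log2 differences of the members in cKO were then 1.95 for Ccnd2, 2.76 for Cdk6 and -1.93 for Cdkn2d. In WT and cKO the calls were kept in 15 and 13 of 17 alternatives for Cdkn2d, and in 12 and 13 for Ccnd2, and that of Cdk6 in cKO in 11.

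Between the genotypes, no member was called in vivo, unstimulated or stimulated. In vivo 9 members were tested, since Cdkn2b was below a mean of 1 FPKM, and 0 were called by limma, against 0.374% of 10415 genes. The corresponding shares of all genes were 0.0747% unstimulated and 0.0187% stimulated, with 0 of 10 members in each. At an unadjusted p under 0.05 there was 1 member in vivo and 0 in either in vitro comparison, against 13.0%, 6.56% and 14.1% of all genes. The median member differed by 0.13 in vivo, 0.07 unstimulated and 0.27 stimulated on the log2 scale, against -0.02, 0.02 and -0.05 over all genes. The groups did not overlap for 4 members in vivo, 3 unstimulated and 6 stimulated, against 47.3%, 34.5% and 48.3% of all genes. In vivo all 4 were higher in cKO (all genes: 21.5% higher, 25.8% lower), unstimulated 2 were higher and 1 lower (17.8% and 16.6%), and stimulated 4 were higher and 2 lower (18.5% and 29.8%). The Treg and B cell markers in vivo, and the Treg, B cell, erythroid and myeloid markers in vitro, differ between the same groups, and their part in these values was not tested.

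**Figure D4:**
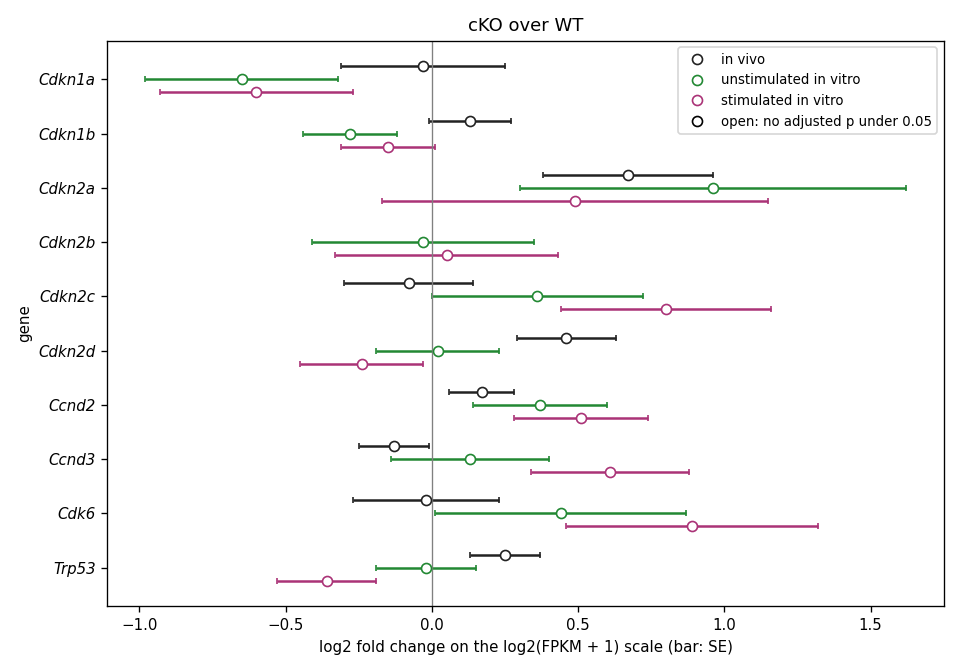
cKO over WT log2 difference of each gene on the log2(FPKM + 1) scale, with bars of 1 SE, in vivo, unstimulated and stimulated; no gene passed an adjusted p under 0.05. Cdkn2a lies at 0.67, 0.96 and 0.49, and Cdkn1a at -0.03, -0.65 and -0.60.

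Cdkn2a (chromosome 4, 89274471 to 89294653, minus strand), the Polycomb target, was scarce in every library. In vivo WT had 1.17 and 1.40 FPKM and cKO 1.63 and 4.0. Unstimulated WT had 0.855 and 1.25 FPKM and unstimulated cKO 2.91 and 3.01. Stimulated WT had 0.250 and 4.86 FPKM and stimulated cKO 4.24 and 1.76. The cKO libraries were above the WT libraries in vivo and unstimulated, while stimulated WT held both the lowest and the highest of the 12 values. The log2 differences were 0.67 (SE 0.29, adjusted p = 0.404), 0.96 (SE 0.66, adjusted p = 0.904) and 0.49 (SE 0.66, adjusted p = 0.776). The in vivo value was 1.13 (adjusted p = 0.0109) without the first cKO library and 0.20 (adjusted p = 0.396) without the second. Leaving out 1 library moved the stimulated value from -0.62 to 1.61. Values this near to 1 FPKM are understated as fold changes by the added 1, and the depth behind them is unknown.

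Its neighbour Cdkn2b (chromosome 4, 89306299 to 89311039, minus strand), encoding p15Ink4b, was near the filter of 1 FPKM. In vivo WT had 0.750 and 1.11 FPKM and cKO 0.780 and 1.0. Unstimulated WT had 1.29 and 1.57 FPKM and unstimulated cKO 1.42 and 1.34. Stimulated WT had 1.62 and 2.30 FPKM and stimulated cKO 3.34 and 1.14. The genotypes overlapped in all 3 settings, with log2 differences of -0.03 (SE 0.38) unstimulated and 0.05 (SE 0.38) stimulated. The stimulated WT libraries were above the unstimulated ones, with a log2 difference of 0.28 (adjusted p = 0.736).

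Cdkn2d was the member with an unadjusted p under 0.05 in vivo (adjusted p = 0.336 by limma). There WT had 21.7 and 24.8 FPKM and cKO 27.4 and 38.1, a log2 difference of 0.46 (SE 0.17). In vitro the genotypes differed by 0.02 unstimulated and -0.24 stimulated. Without the first cKO library in vivo the difference was 0.69 (adjusted p = 0.0173), and without the second it was 0.23 (adjusted p = 0.175). Over all genes these settings called 425 of 10450 and 1994 of 10368, against 39 with all 4 libraries. Without the second cKO library 4 other members passed: Cdkn1a (-0.49, adjusted p = 0.0227), Cdk6 (-0.42, adjusted p = 0.0457), Cdkn1b (0.34, adjusted p = 0.0292) and Trp53 (0.40, adjusted p = 0.0187).

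The Cdkn1a differences were below 0 in vitro, at -0.65 unstimulated (SE 0.33, adjusted p = 0.829) and -0.60 stimulated. In vivo the log2 value was -0.03 (SE 0.28), though the mean FPKM was higher in cKO (40.1 against 39.0). None of these differences passed the test. In vivo WT had 42.0 and 36.1 FPKM and cKO 27.3 and 52.8, where the cKO libraries lay on either side of both WT values. Unstimulated cKO (36.7 and 24.7 FPKM) overlapped unstimulated WT (34.5 and 66.3). Stimulated cKO (43.5 and 29.7 FPKM) was below stimulated WT (50.6 and 60.2), with an SE of 0.33 (adjusted p = 0.456). For Trp53, WT had 49.8 and 50.2 FPKM in vivo and cKO 66.3 and 54.1, and in stimulated cells the order was reversed. The log2 differences were 0.25 (SE 0.12, adjusted p = 0.431) in vivo and -0.36 (SE 0.17, adjusted p = 0.394) stimulated.

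In stimulated cells Ccnd2, Ccnd3, Cdk6 and Cdkn2c were higher in both cKO libraries than in both WT libraries, as were 18.5% of all genes. None of the members passed the test. The log2 differences were 0.89 (SE 0.43, adjusted p = 0.403) for Cdk6 and 0.80 (SE 0.36, adjusted p = 0.370) for Cdkn2c. They were 0.61 (SE 0.27, adjusted p = 0.367) for Ccnd3 and 0.51 (SE 0.23, adjusted p = 0.370) for Ccnd2. Unstimulated, the same genes differed by 0.44, 0.36, 0.13 and 0.37, and of these groups only those of Ccnd2 did not overlap. Leaving out 1 library moved the stimulated values over 0.62 to 1.16 for Cdk6, 0.27 to 1.33 for Cdkn2c, 0.19 to 1.03 for Ccnd3 and 0.22 to 0.80 for Ccnd2, with 0 calls. Without both WT replicate 2 libraries, those with the most genes at 0, the stimulated differences were 0.99 for Cdk6 and 0.27 for Cdkn2c. They were 0.19 for Ccnd3 and 0.80 for Ccnd2. In vivo Cdkn2c had 7.34 and 8.89 FPKM in WT, inside the cKO range of 5.87 and 9.69.

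Wider lists show what surrounded these genes. Of 34 other G1 to S regulators, 32 were tested in vitro and 1 was called: Cks1b, a subunit of cyclin-dependent kinase complexes, fell by 1.07 on the log2 scale on stimulation of cKO (adjusted p = 0.0455), a call kept in 6 of 17 alternatives. The list's median stimulation difference was -0.16 in WT and -0.21 in cKO, against -0.04 and -0.14 over all genes. For comparison with this list and the next, 2.43% of all genes were called in WT and 4.58% in cKO. Of 24 tested p53 targets and regulators, Sesn1 fell in WT (-0.99, adjusted p = 0.0244) and cKO (-1.11, adjusted p = 0.0159), and Sesn2 rose in WT (0.88, adjusted p = 0.0426). These calls were kept in 7, 13 and 5 of 17 alternatives. Both encode sestrins, stress-induced inhibitors of mTORC1 signalling. The apoptosis genes Bax (-1.27, adjusted p = 0.0336) and Bbc3 (-1.55, adjusted p = 0.0399) fell in cKO, calls kept in 12 and 8 of 17 alternatives. The list's medians were -0.13 in WT and -0.26 in cKO, against -0.04 and -0.14 over all genes.

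Of 21 tested quiescence and FOXO target genes, 4 fell in WT and 7 in cKO, and 0 rose in either, while 0.822% and 2.49% of all genes were called lower. The log2 differences in WT and cKO were -2.65 and -2.50 for the transcriptional repressor Bcl6, and -1.81 and -2.03 for Txnip, an inhibitor of glucose uptake. They were -1.19 and -1.55 for Ccng2, an atypical cyclin, and -1.12 and -1.39 for Tsc22d3, a glucocorticoid-induced gene, and these 8 calls were kept in 12 to 17 of 17 alternatives. The list's median was -0.22 in WT and -0.14 in cKO, against -0.04 and -0.14 over all genes. Of 25 tested proliferation genes, 0 were called higher in either genotype and 1 was called lower, the replication helicase gene Mcm6 in WT (-0.93, adjusted p = 0.0384), a call kept in 5 of 17 alternatives. Their medians were -0.27 in WT and -0.09 in cKO, against -0.04 and -0.14 over all genes. Between the genotypes none of these 4 lists had a called gene in any setting, and at an unadjusted p under 0.05 there were 19 of 104 tested genes in vivo, 7 of 102 unstimulated and 19 of 102 stimulated, against 13.0%, 6.56% and 14.1% of all genes. All 26 proliferation genes were below 0 in vivo (median -0.28), and 22 of 25 were above 0 in both in vitro settings (medians 0.32 and 0.49). The medians over all genes were -0.02, 0.02 and -0.05. These sign counts are a description, since such genes may vary together and no share over all genes was counted. The B cell markers were likewise lower in cKO in vivo and higher in vitro, and the part of other cells in these values was not tested.

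Over the 8 in vitro libraries, log2(FPKM + 1) of Ccnd2 and Cdkn2d ran opposite to each other (Pearson r = -0.978), as a description over libraries that share the stimulation groups. Ccnd2 and Cdk6 had r = 0.954, and Cdkn1b and Cdkn2d had r = 0.900. Among 7825 genes averaging 5 FPKM or more, those most like Ccnd2 were Nomo1 (r = 0.993), Rrp12 (0.991) and Wdr75 (0.991). Those most like Cdkn1b were Tnfaip8l1 (0.985), Terf2ip (0.984) and Bambi-ps1 (0.977). Those most like Cdkn2a were H2-Oa (0.909), Sox4 (0.865) and Atp6v0a1 (0.859). Cdkn2a lay at only 0.250 to 4.86 FPKM in these libraries. All such genes are the highest picked from 7825 over 8 libraries, and whether chance or other cells give such values was not tested. Exons of 4 members overlap genes on the opposite strand (Cdkn1a, Ccnd2, Ccnd3 and Cdk6). Use of strand in the counting is not stated, so reads from the shared exonic stretches cannot be assigned to 1 gene. The overlapping genes are AC167363.2 for Cdkn1a, Gm43126 and 9330179D12Rik for Ccnd2, Bysl for Ccnd3 and Gm17590 for Cdk6.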

How the data were processed

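The authors deposited FPKM, 1 column per library, in 1 table for the 4 in vivo and 1 for the 8 in vitro libraries. HISAT2 2.2.1 and StringTie 2.1.1 and the builds mm10 and hg19 are named, per the submitters' processing notes, with no role. Neither depth nor strand is given. Both tables together also hold 4 per-sample columns that match no label; they were not used. In vivo columns carry no replicate number, so first and second library follow the table's order. Levels were taken as log2(FPKM + 1) and tested with limma 3.58.1 (R 4.3.3; empirical Bayes with a trend, two-sided). Genes averaging under 1 FPKM were left out, with 1 fit per table and no replicate block. P-values were adjusted by Benjamini-Hochberg over all genes (called under 0.05). The fit was also run on simulated data with independent noise in each library. That setting holds no deviations shared between libraries, so it cannot show their effect here. Gene positions are from GENCODE M21 (GRCm38). Of the in vivo identifiers 16196 of 16232 matched a symbol. Named genes are the members, Kdm2b, up to 4 called or 2 uncalled genes of each wider list by p, and the 3 nearest patterns of Cdkn1b, Cdkn2a and Ccnd2. Members and lists were chosen with earlier results of these data known. Alternatives covered the pseudocount, the filter, 3 scalings, a replicate block, and leaving out libraries.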

Additional observations from a re-analysis of the deposited data

Results flagged for a closer look

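Trp53 was flagged because its genotype difference ran in opposite directions in 2 settings, with no overlap between the genotypes in either. The genotypes also did not overlap for 47.3% of all genes in vivo and 48.3% in stimulated cells. How many of all genes reverse in this way was not counted. cKO over WT was 0.25 on the log2 scale in vivo and -0.36 in stimulated cells. The difference between these values was not tested, since the tables were normalized separately, and neither value passed the test.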

How the results depend on the processing

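Over 59 member results and 921 alternative values, 813 kept their direction and side of the threshold, 38 lost and 12 gained a call, and 58 changed sign. The 813 do not measure stability, since part of this agreement was fixed in advance. In vitro, the block or leaving out a library outside the 2 groups compared cannot change a log2 difference. Most results had no call to lose, and the 38 losses all fell on the few that were called. The number of called members in WT stimulation (3) became 1 with no filter on low values, and 0 with only the 4 samples compared or without both cKO replicate 1 libraries, an alternative added after seeing the data. In cKO stimulation (3) it became 0 without both cKO replicate 1 libraries. Leaving out 1 library gave 1 to 3 in WT, 0 to 3 in cKO and 0 to 4 in vivo, where the count was 0, while calls over all genes ran from 95 to 966, 12 to 660 and 17 to 1994. The unstimulated, stimulated and interaction counts stayed at 0 in every alternative run. The replicate block was tried because labels share numbers that nothing says pair the samples. Replicate deviations correlated at 0.239 between the WT groups, 0.42 between the cKO groups and -0.138 to 0.0577 across genotypes. The block was shared by both genotypes, so pairing within a genotype was not tested. With this block 3 members were called in each genotype, with Cdk6 gained in WT (adjusted p = 0.0449) and Cdkn1b lost (adjusted p = 0.0516). Sign changes by scaling were Cdk6 in vivo 0.00, Cdkn2d unstimulated -0.04, Trp53 unstimulated 0.01, Kdm2b unstimulated -0.00, Trp53 in WT stimulation 0.04 and Cdkn2a in cKO stimulation 0.03 to 0.04. Without both WT replicate 2 libraries they were Cdkn2b unstimulated 0.06, Cdkn2d unstimulated -0.13, Cdkn2a in WT stimulation -0.57, and interactions of -0.29 for Cdkn1a, 0.51 for Cdkn2a, -0.08 for Ccnd3 and -0.19 for Cdk6. Without both cKO replicate 1 libraries they were Trp53 unstimulated 0.19, Cdkn2b stimulated -0.46, Cdkn2b in cKO stimulation -0.13 and the Cdkn2b interaction -0.41. The cause of these changes was not tested.

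Ranges that crossed 0 on leaving out 1 library were, in vivo, -0.49 to 0.43 for Cdkn1a, -0.08 to 0.34 for Cdkn1b, -0.40 to 0.24 for Cdkn2c and -0.42 to 0.38 for Cdk6. Unstimulated they were -0.11 to 0.06 for Cdkn2b, -0.13 to 0.17 for Cdkn2d, -0.01 to 0.26 for Ccnd3, -0.30 to 1.18 for Cdk6, -0.23 to 0.19 for Trp53 and -0.02 to 0.14 for Kdm2b. Stimulated they were -0.62 to 1.61 for Cdkn2a, -0.46 to 0.56 for Cdkn2b and -0.48 to 0.00 for Cdkn2d. In WT stimulation they were -0.26 to 0.66 for Cdkn1a, -0.71 to 1.52 for Cdkn2a and -0.17 to 0.02 for Trp53. In cKO stimulation they were -0.03 to 0.53 for Cdkn1a, -0.52 to 0.40 for Cdkn2a and -0.15 to 0.86 for Cdkn2b. For the interaction they were -0.42 to 0.51 for Cdkn1a, -1.58 to 0.65 for Cdkn2a, -0.43 to 0.58 for Cdkn2b, -0.09 to 0.98 for Cdkn2c, -0.15 to 0.42 for Ccnd2 and -0.29 to 1.19 for Cdk6. Where a group was left with 1 library, that library was assumed to vary like the others. Depth is unknown, so the precision of low values such as those of Cdkn2a and Cdkn2b cannot be given.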
